A study of Homo sapiens with 6 samples.

Results

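The genes described here are 10 members of the Notch pathway: the receptors NOTCH1, NOTCH2 and NOTCH3, the ligands JAG1 and JAG2, the DNA-binding mediator RBPJ, and the target genes HES1, HES4, HEY1 and NRARP. They were taken by name, 10 of the 58721 gene rows in the count table, and all 10 passed the filter on low counts. RNA was sequenced from 6 libraries of A549, an established human lung adenocarcinoma line: 3 from cells overexpressing KAT8 R98W and 3 from cells overexpressing wild-type KAT8 (WT), with no library of cells without overexpression used here. KAT8, also called MOF, is a lysine acetyltransferase of histone H4, and R98W is an amino acid substitution in a protein whose Tudor-knot domain is the subject of the series. The labels do not say whether the lines were clones or whether replicates were separate cultures, so any p-value speaks only of how these libraries vary, and that variation may be technical. In bulk RNA, fewer cells expressing a gene and less RNA per cell cannot be told apart.

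In Notch signalling, a ligand on one cell binds a receptor on its neighbour, the receptor is cut by an ADAM protease and then by gamma-secretase, and the freed intracellular part enters the nucleus. There it joins RBPJ and a Mastermind coactivator and turns on genes such as HES1 and HEY1, which encode basic helix-loop-helix repressors, while RBPJ without it holds such genes down with corepressors. In the airway the pathway is known for choices between secretory and ciliated cell fates.

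HEY1 was higher in every R98W library than in any WT library, about 2.48-fold by the fitted value, while JAG1, JAG2 and HES1 differed by less and RBPJ and NOTCH2 were at nearly equal levels. In a fit across all 20713 tested genes by edgeR, HEY1, JAG1, JAG2 and HES1 were past an adjusted p of 0.05 toward R98W and 0 of the 10 toward WT. Over all tested genes the same rule called 34.8%, with 16.2% higher and 18.5% lower in R98W. The median log2 fold change of the 10 genes was 0.24, against -0.005 over all tested genes. The 10 genes were proposed with results of this same comparison in view. Their differences are therefore a description with no p-value, and nothing is read from the count of 4.

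The libraries held 90007121 to 110152936 counts. KAT8 had 166, 196 and 236 CPM (the count of a gene relative to its TMM-scaled library total) in the R98W libraries. In WT it had 195 and 184 CPM in replicates 2 and 3 but 12.2 CPM in replicate 1, which goes against that library's label. KAT8 counts may hold reads of both the introduced and the endogenous gene. The library labelled WT replicate 1 also held the highest WT value of 9 of the 10 Notch genes, whereas it was the highest WT library in 35.3% of all tested genes. WT replicate 2 held the lowest WT value of 8 of the 10, against 34.8% of all tested genes. The share of counts in the mitochondrial rRNA genes was 1.47% to 1.57% in R98W libraries and 0.905% to 1.04% in WT libraries. The part of that share or of either library in the differences was not tested, and leaving out the one labelled WT replicate 1 put 6 genes past the threshold, all higher in R98W, with NOTCH3 and HES4 added. The log2 fold changes were then 0.32 for JAG1, 0.48 for JAG2, 0.41 for HES1 and 1.59 for HEY1. Without WT replicate 2 the count was 2, JAG1 and HEY1, and without WT replicate 3 it was 2, HES1 and HEY1. All 6 epithelial markers (EPCAM, CDH1, KRT7, KRT8, KRT18 and KRT19) averaged over 1 CPM. EPCAM fell to 3.92 ± 0.72 CPM in R98W, against 7.10 ± 1.10 CPM in WT (edgeR adjusted p = 0.000151), KRT19 rose to 54.7 ± 3.0 CPM in R98W, against 39.4 ± 1.7 CPM in WT (edgeR adjusted p = 3.53e-05), and the other 4 were not past the threshold; their part in the Notch values was not tested. The 4 alveolar type 2 markers summed to only 0.0947 to 0.194 CPM in R98W libraries and 0.104 to 0.211 CPM in WT libraries. Immune markers summed to at most 0.143 CPM in R98W and 0.201 CPM in WT, and CD3E was at 0 throughout. Endothelial markers summed to 0.214 to 0.362 CPM in R98W libraries and 0.392 to 0.779 CPM in WT libraries. Of 4 fibroblast markers only COL1A1 averaged over 1 CPM, and they summed to 11.6 to 13.1 CPM in R98W libraries and 10.4 to 14.6 CPM in WT libraries.

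**Figure D1:**
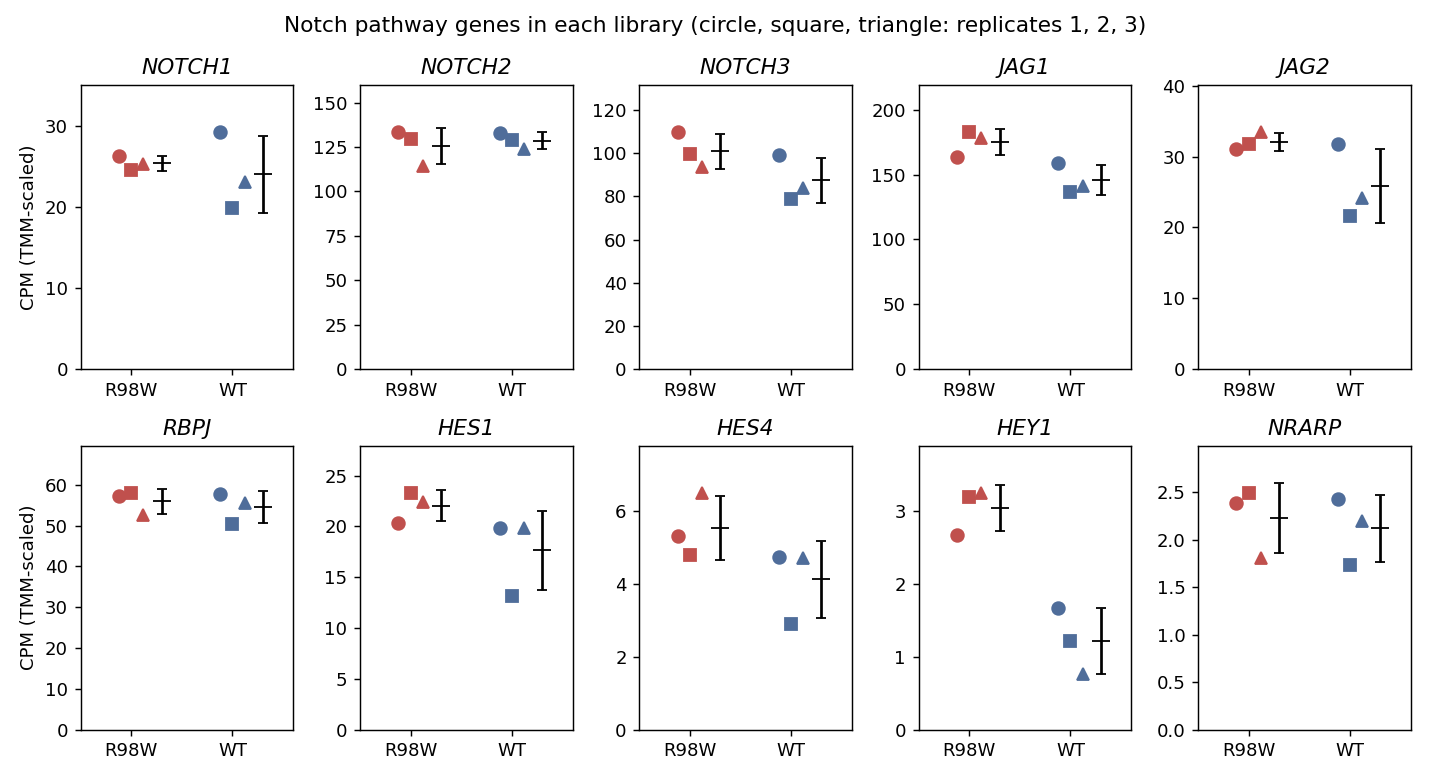
Level of each of the 10 Notch pathway genes in each library, in CPM on a scale from 0, with R98W left of WT; symbols mark the replicates and the black bars give the mean and SD (n = 3). The R98W libraries of HEY1 sit between 2.68 and 3.25 CPM, above the WT libraries at 0.769 to 1.68 CPM, and the groups overlap for NOTCH1, NOTCH2, NOTCH3, JAG2, RBPJ and NRARP.

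The receptors differed little. NOTCH1 (ENSG00000148400, chromosome 9, 136494433 to 136545786, hg38), the receptor best known for its part in cell fate choices and T cell leukaemia, had 26.3, 24.5 and 25.2 CPM in R98W replicates 1 to 3 and 29.2, 19.9 and 23.0 CPM in WT replicates 1 to 3. The R98W values lay inside the WT range, and the log2 fold change was 0.08 (SE 0.105), which became 0.23 without the library labelled WT replicate 1 and -0.05 without WT replicate 2. NOTCH2 (ENSG00000134250, chromosome 1, 119911553 to 120069626) had 133, 129 and 114 CPM in R98W and 133, 129 and 124 CPM in WT. Its groups overlapped almost completely, with a log2 fold change of -0.03 (SE 0.070). Reads of NOTCH2 may be shared with near-identical partial copies, of which NOTCH2NLA held 1.02 ± 0.14 CPM in R98W and 1.2 ± 0.11 CPM in WT (SD, n = 3 each). NOTCH3 (ENSG00000074181, chromosome 19, 15159038 to 15200981), a receptor known from vascular smooth muscle, had 110, 99.7 and 93.6 CPM in R98W and 99.1, 79.0 and 84.1 CPM in WT. Only the library labelled WT replicate 1 reached into the R98W range. The log2 fold change of NOTCH3 was 0.21 (SE 0.082) and not past the threshold, which it passed without the library labelled WT replicate 1 (0.30) and without R98W replicate 3 (0.26). It was 0.13 without WT replicate 2, 0.12 after a correction for expression level and 0.36, past the threshold, after one for GC content.

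Both JAG ligands were past the threshold toward R98W. JAG1 (ENSG00000101384, chromosome 20, 10637684 to 10673999) encodes a transmembrane ligand of the Serrate type and had 163, 183 and 178 CPM in R98W, against 159, 137 and 141 CPM in WT. The groups did not overlap, but R98W replicate 1 and the library labelled WT replicate 1 were close. Its log2 fold change was 0.27 (SE 0.071), and it was 0.24 and no longer past the threshold without WT replicate 3. A correction for expression level brought it to 0.13 and also ended the call. JAG2 (ENSG00000184916, chromosome 14, 105140981 to 105168824), the other ligand of that type, had 31.1, 31.8 and 33.5 CPM in R98W, against 31.7, 21.7 and 24.1 CPM in WT. The library labelled WT replicate 1 lay within the R98W range, and the other WT libraries lay below it. The log2 fold change of JAG2 was 0.31 (SE 0.105). It was no longer past the threshold without R98W replicate 2 (0.32) or 3 (0.28) or without WT replicate 2 (0.19) or 3 (0.26).

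RBPJ (ENSG00000168214, chromosome 4, 26163455 to 26435131), on which both activation and repression of the targets converge, was level between the groups. It had 57.3, 58.0 and 52.5 CPM in R98W and 57.9, 50.3 and 55.6 CPM in WT, with a log2 fold change of 0.04 (SE 0.072). RBPJ has processed pseudogenes in the annotation, so the split of its reads is uncertain.

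Among the targets, HEY1 stood apart in the size of its difference. HEY1 (ENSG00000164683, chromosome 8, 79764010 to 79767863), a hairy-related repressor, had 2.68, 3.19 and 3.25 CPM in R98W, from 263, 309 and 343 reads, against 1.68, 1.22 and 0.769 CPM in WT, from 167, 140 and 73 reads. Every R98W library was above every WT library, and the library labelled WT replicate 1, with the low KAT8, was the highest of the WT libraries. The log2 fold change was 1.31 (SE 0.217), larger in size than that of 96.1% of tested genes. HEY1 stayed past the threshold in all 15 alternative analyses, with log2 fold changes from 1.07 to 1.59. These refits share the same libraries, and HEY1 was proposed with this comparison in view, so they are a description only.

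HES1 (ENSG00000114315, chromosome 3, 194136145 to 194138732), the repressor that also shuts off its own gene, had 20.4, 23.3 and 22.4 CPM in R98W and 19.9, 13.2 and 19.9 CPM in WT. The groups did not overlap, but WT replicates 1 and 3 were within a few percent of R98W replicate 1, and WT replicate 2 was low. Its log2 fold change was 0.32 (SE 0.120). Without WT replicate 2 it was 0.14, and the call also ended without R98W replicate 2 (0.28) or 3 (0.31) and under upper quartile scaling (0.31). HES4 (ENSG00000188290, chromosome 1, 998962 to 1000172), a relative of HES1 that is absent from mice, had 5.30, 4.79 and 6.48 CPM in R98W and 4.74, 2.90 and 4.70 CPM in WT. The groups did not overlap, by a narrow margin between R98W replicate 2 and the library labelled WT replicate 1. Its log2 fold change was 0.43 (SE 0.168) and not past the threshold, which it passed without the library labelled WT replicate 1 (0.53) or without R98W replicate 2 (0.52). Without WT replicate 2 the log2 fold change of HES4 was 0.22. NRARP (ENSG00000198435, chromosome 9, 137300482 to 137302251), an ankyrin repeat protein that feeds back to damp the Notch complex, had 2.38, 2.49 and 1.81 CPM in R98W and 2.43, 1.73 and 2.19 CPM in WT. Its groups overlapped, with a log2 fold change of 0.07 (SE 0.182) that ran from -0.06 to 0.25 over the alternatives.

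Across the 10 genes, the groups did not overlap for JAG1, HES1, HES4 and HEY1, which is 4 of 10 beside 45.6% of all tested genes.

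**Figure D2:**
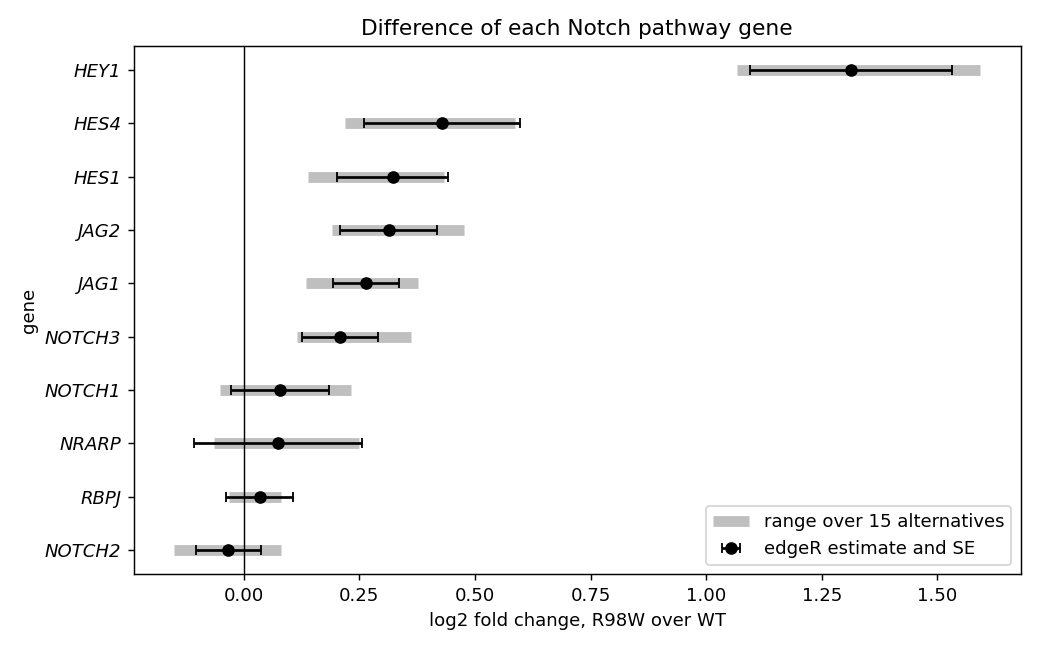
Log2 fold change of R98W over WT for each of the 10 genes; black points and bars are the edgeR estimate and its SE, and grey bars span 15 alternative analyses. HEY1 lies at 1.31, apart from the other 9 genes, which lie between -0.03 and 0.43; the alternatives cross 0 for NOTCH1, NOTCH2, NRARP and RBPJ.

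The order of the genes by level was the same in both groups. Per kilobase of exon (RPKM), JAG1 led with 18.8 ± 1.1 in R98W and 15.6 ± 1.2 in WT (SD, n = 3 each). NOTCH3 followed with 10.8 ± 0.87 in R98W and 9.31 ± 1.11 in WT, and HES1 with 10.7 ± 0.73 in R98W and 8.55 ± 1.88 in WT, and these 2 overlapped in both groups. NOTCH2 came next with 7.47 ± 0.60 RPKM in R98W and 7.64 ± 0.28 in WT, overlapping HES1 only in WT. RBPJ had 6.05 ± 0.32 RPKM in R98W and 5.90 ± 0.42 in WT. JAG2 and HES4 overlapped in both groups, with 5.02 ± 0.19 and 4.94 ± 0.77 RPKM in R98W and 4.04 ± 0.82 and 3.68 ± 0.94 RPKM in WT. NOTCH1 had 2.44 ± 0.09 RPKM in R98W and 2.31 ± 0.46 in WT, overlapping HES4 only in WT. NRARP, at 1.26 ± 0.21 in R98W and 1.2 ± 0.2 in WT, and HEY1, at 0.941 ± 0.097 in R98W and 0.378 ± 0.141 in WT, closed the order. All other neighbours in this order were separated in the libraries of both groups.

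**Figure D3:**
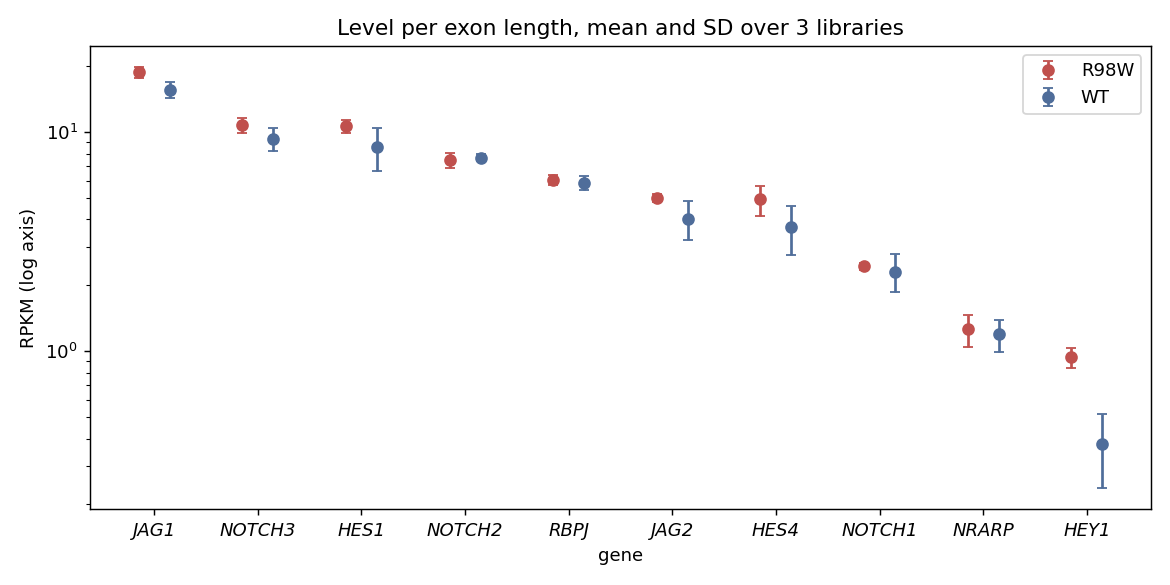
Level per exon length of the 10 genes in RPKM on a log axis, ordered from high to low, with R98W left of WT; points are means and bars SD over 3 libraries. JAG1 is at 18.8 RPKM in R98W and 15.6 in WT, and HEY1 is the lowest gene in both groups.

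Within each family a few genes made up most of the RNA. NOTCH3 gave 52.0% ± 0.7 of the summed receptor RPKM in R98W and 48.1% ± 1.4 in WT, NOTCH2 36.1% ± 0.9 in R98W and 39.8% ± 2.7 in WT, and NOTCH1 11.8% ± 0.7 in R98W and 11.9% ± 1.3 in WT. Among the ligands of the JAG and DLL type, JAG1 gave 74.7% ± 1.1 in R98W and 71.9% ± 0.7 in WT, and JAG2 20.0% ± 0.7 in R98W and 18.4% ± 2.2 in WT. DLL3, outside the 10 genes, gave 4.78% ± 0.18 in R98W and 9.10% ± 2.23 in WT. HES1 and HES4 together led the HES and HEY factors, HES1 with 51.3% ± 3.8 in R98W and 49.6% ± 4.3 in WT and HES4 with 23.6% ± 2.4 in R98W and 21.3% ± 2.7 in WT. HEY1 gave 4.51% ± 0.35 of that sum in R98W and 2.24% ± 0.82 in WT (SD, n = 3 each). These shares are descriptions of the same libraries.

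The GC content of the longest transcript set several of these genes apart from most tested genes. It was 73.9% for HES4, 67.3% for NRARP, 64.0% for JAG2, 63.1% for NOTCH3 and 62.9% for NOTCH1, each above at least 93.8% of tested genes, while RBPJ, at 38.0%, was above only 7.62%. After a correction for GC content the genes past the threshold were 6 higher and 0 lower, with NOTCH3 at 0.36 and HES4 at 0.51 on the log2 scale. The same correction gave 5109 higher and 3102 lower genes over the whole table, against 3364 higher and 3839 lower without it.

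HES1 and HES4 had higher fitted values in R98W, and HEYL, a sister of HEY1, a lower one, though HES4 was not past the threshold. The sequences just before these genes are shown, with these directions known, because they hold the core letters that RBPJ binds. Each runs from 250 bases before to 50 bases after the start of the RefSeq gene (GRCh38.p14), 5′ to 3′ on the gene's strand, and capitals mark TGGGAA or its reverse complement TTCCCA. HES1 is on the plus strand at chr3:194135898-194136197, HES4 on the minus strand at chr1:1000048-1000347 and HEYL on the minus strand at chr1:39639594-39639893.
HES1: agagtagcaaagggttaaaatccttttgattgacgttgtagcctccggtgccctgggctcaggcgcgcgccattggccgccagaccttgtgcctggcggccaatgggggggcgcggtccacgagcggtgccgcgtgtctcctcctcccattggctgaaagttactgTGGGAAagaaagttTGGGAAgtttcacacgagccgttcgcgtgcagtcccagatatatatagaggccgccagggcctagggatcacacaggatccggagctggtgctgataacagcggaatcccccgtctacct
HES4: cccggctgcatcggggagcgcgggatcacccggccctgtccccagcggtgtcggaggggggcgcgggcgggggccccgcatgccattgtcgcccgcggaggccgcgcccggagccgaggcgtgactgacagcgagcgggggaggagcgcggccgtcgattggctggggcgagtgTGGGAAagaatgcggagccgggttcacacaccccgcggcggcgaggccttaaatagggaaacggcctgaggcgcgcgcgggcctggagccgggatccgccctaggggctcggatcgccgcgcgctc
HEYL: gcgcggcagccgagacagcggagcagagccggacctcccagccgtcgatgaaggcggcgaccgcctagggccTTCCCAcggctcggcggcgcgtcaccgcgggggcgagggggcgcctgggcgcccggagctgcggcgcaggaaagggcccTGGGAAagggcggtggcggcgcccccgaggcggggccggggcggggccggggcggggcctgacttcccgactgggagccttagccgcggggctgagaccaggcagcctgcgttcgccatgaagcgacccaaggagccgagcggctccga
HES1 held TGGGAA at 84 and at 70 bases before the start, 14 bases apart, and HES4 held it at 76 bases before the start. HEYL held TTCCCA at 178 and TGGGAA at 99 bases before the start. The promoter of HES2, which was higher in R98W, held neither form and is not shown. Of the 10 genes, 9 had an entry in the promoter table, all but HEY1, and 3 of the 9 held the letters in at least 1 promoter: HES1, HES4 and RBPJ, the last in 1 of its 5. Of all 35116 promoters of this length 24.0% held them, and 28.1% of the 27305 genes did in at least 1 promoter. The longer form GTGGGAA, which contains the shorter one, or its reverse complement was in 6.25% of all promoters. In at least 1 promoter, 7.6% of the 27305 genes held it. Among the 10 genes it was in those of HES1, HES4 and RBPJ, and among the other HES and HEY factors in those of HEYL, HEY2 and HES5. Of the remaining listed genes, SPEN, CTBP2, L3MBTL3 and RBPJL held it in at least 1 promoter. A match is a description of the sequence and not evidence of binding.

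HEYL, which was not among the 10 genes, fell while HEY1 was higher. HEYL (ENSG00000163909), a repressor of the same subfamily, had 4.19, 3.94 and 3.39 CPM in R98W, against 6.37, 7.76 and 7.06 CPM in WT. The groups did not overlap, and the change on the log2 scale was -0.88 (SE 0.128, edgeR adjusted p = 2.98e-05). Per exon length the ratio of HEY1 to HEYL was 0.725, 0.919 and 1.09 for the R98W libraries, against 0.298, 0.178 and 0.123 in the WT libraries. Both genes had already separated the groups in opposite directions, so the ratio restates those values and is no further result. HES2, a further HES repressor, rose to 5.05 ± 0.40 CPM in R98W, against 3.34 ± 0.61 CPM in WT (SD, n = 3 each), a change of 0.60 on the log2 scale (SE 0.146, edgeR adjusted p = 0.00345). HEY2, the third member of the HEY subfamily, held 0.0705 ± 0.0625 CPM in R98W and 0.123 ± 0.061 CPM in WT and was not past the threshold (edgeR adjusted p = 0.404). HES5, a main Notch target in neural progenitors, had 0 reads in all 6 libraries, which allows at most 0.0316 CPM in any of them by counting error alone.

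**Figure D4:**
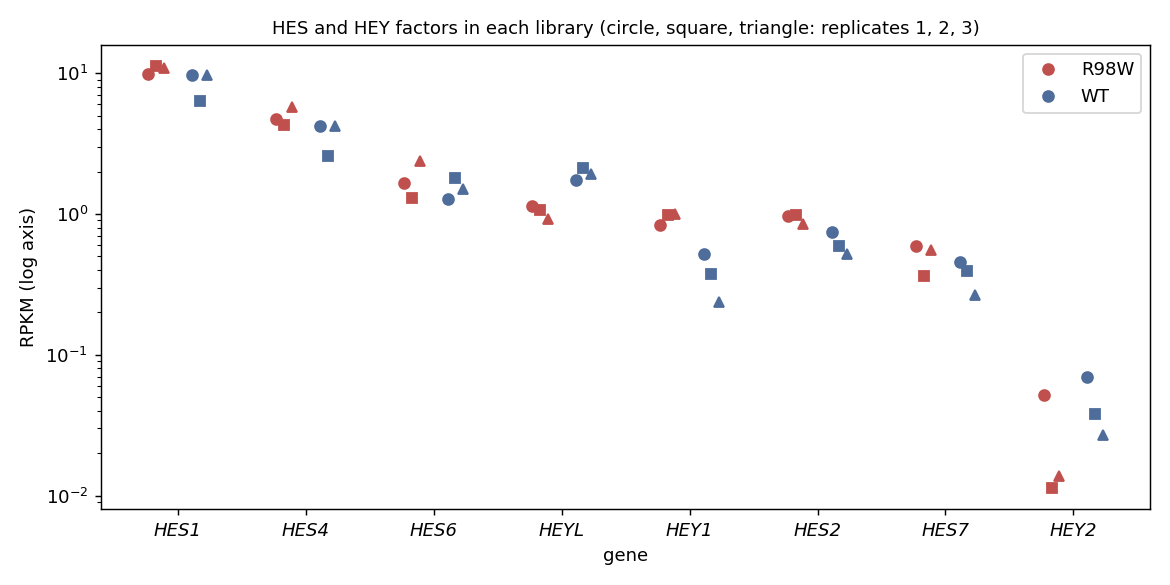
RPKM of the HES and HEY factors with at least 1 read, in each library on a log axis, with R98W left of WT and symbols for the replicates. HEY1, HES2, HES1 and HES4 are higher in R98W and HEYL is lower, without overlap between the groups, though narrowly for HES1 and HES4. The groups overlap for HES6, HES7 and HEY2.

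Of 62 other Notch pathway genes, listed by role, 58 could be tested: 13 rose, 12 fell and 33 were not past the threshold. That is 25 of 58 beside the 34.8% of all tested genes, with a median log2 fold change of -0.006 against -0.005 over all tested genes. The list was drawn up with earlier results of these data known, so these counts and the adjusted p-values of its genes are a description only. Without the library labelled WT replicate 1 12 rose and 12 fell, with the calls of NOTCH4 and KAT2B the ones lost among the genes with values given here, and after the correction for GC content 19 rose and 11 fell.

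Of the other receptor and the DLL ligands, NOTCH4, DLL1 and DLL4 were under 1 CPM in every library, and DLL3 was at 3.11 to 5.93 CPM over all libraries. NOTCH4, a receptor of endothelium, had 0.132, 0.165 and 0.133 CPM in R98W, against 0.281, 0.270 and 0.421 CPM in WT, from 43 reads in all R98W libraries and 99 in all WT libraries. Its change on the log2 scale was -1.17 (SE 0.443, edgeR adjusted p = 0.0476), a call that ended when any 1 library was left out, with log2 fold changes of -0.94 to -1.30. The summed endothelial markers were likewise below their WT sums in R98W, all under 1 CPM, but KDR had its only reads, 4, in R98W, CDH5 and VWF overlapped between the groups, and PECAM1 and CDH5, which could be tested, did not pass (edgeR adjusted p = 0.232 and 0.224). Their part in NOTCH4 was not tested. DLL3, a ligand known for holding Notch back within the same cell, fell to 3.11, 3.13 and 3.19 CPM in R98W, against 4.05, 5.38 and 5.93 CPM in WT, a change of -0.70 on the log2 scale (SE 0.147, edgeR adjusted p = 0.000977). DLL1 and DLL4, the Delta ligands that activate receptors, stood at 0.205 ± 0.11 and 0.359 ± 0.121 CPM in R98W and at 0.212 ± 0.048 and 0.251 ± 0.14 CPM in WT, and neither was past the threshold.

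Genes that cut and modify the receptor went both ways. FURIN, which cleaves the receptor on its way to the cell surface, fell to 38.3, 37.7 and 36.6 CPM in R98W, against 69.6, 62.5 and 66.9 CPM in WT. Its change on the log2 scale was -0.82 (SE 0.069, edgeR adjusted p = 4.76e-08). ADAM10 and ADAM17, the sheddases of the ligand-bound receptor, rose to 416 ± 27 and 137 ± 4.7 CPM in R98W, against 347 ± 19 and 111 ± 7.8 CPM in WT, with log2 fold changes of 0.26 (SE 0.068, edgeR adjusted p = 0.00505) and 0.31 (SE 0.068, edgeR adjusted p = 0.00143). After a correction for expression level ADAM10 was at 0.08 and no longer past the threshold, and ADAM17 was at 0.20 and still past it. ADAM17 overlaps IAH1, at 39.2 CPM, on the other strand. APH1A, a scaffold subunit of gamma-secretase, fell to 64.1 ± 4.5 CPM in R98W, against 85.3 ± 5.7 CPM in WT (edgeR adjusted p = 0.000185), with a log2 fold change of -0.41 that was -0.24 and still past the threshold after the correction for GC content. RFNG, a Fringe glycosyltransferase that tunes which ligands a receptor answers to, fell to 6.11 ± 0.90 CPM in R98W, against 11.6 ± 0.76 CPM in WT, a change of -0.92 on the log2 scale (SE 0.117, edgeR adjusted p = 6.29e-06). RFNG overlaps GPS1, at 79.3 CPM, on the other strand, and the other 4 glycosylation genes were not past the threshold.

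Of 12 genes of ligand endocytosis and receptor turnover, 6 rose (NUMBL, NUMB, MIB1, FBXW7, DTX2 and ITCH) and 3 fell (DTX3, DTX4 and, at a mean under 1 CPM, DTX1), which is 9 of 12 beside 34.8% of all tested genes. DTX2 and ITCH were near the threshold (edgeR adjusted p = 0.0358 and 0.0474), and the groups overlapped for DTX2. The Deltex ubiquitin ligases DTX3 and DTX4 fell to 3.76 ± 0.11 and 11.2 ± 0.48 CPM in R98W, against 8.0 ± 0.36 and 17.8 ± 0.78 CPM in WT, with log2 fold changes of -1.09 (SE 0.116, edgeR adjusted p = 8.2e-07) and -0.67 (SE 0.087, edgeR adjusted p = 8.97e-06). NUMBL and NUMB, adaptors that draw Notch into endocytosis, rose to 46.1 ± 3.8 and 128 ± 11 CPM in R98W, against 31.6 ± 3.9 and 105 ± 4.7 CPM in WT. Their log2 fold changes were 0.55 (SE 0.088, edgeR adjusted p = 7.88e-05) and 0.28 (SE 0.071, edgeR adjusted p = 0.00447), and NUMB was at 0.17 with an edgeR adjusted p of 0.0541 after the correction for expression level.

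Among 8 coactivators, 1 rose and 1 fell, which is 2 of 8 beside 34.8% of all tested genes, and the 3 Mastermind genes MAML1, MAML2 and MAML3 were not past the threshold. SNW1, a splicing and transcription factor that contacts the Notch complex, fell to 74.2 ± 2.0 CPM in R98W, against 86.5 ± 5.4 CPM in WT (log2 fold change -0.22, edgeR adjusted p = 0.0152), a call that ended without R98W replicate 3 (-0.20) or WT replicate 3 (-0.21). SNW1 overlaps SLIRP, at 44.4 CPM, on the other strand. KAT2B, an acetyltransferase, had 30.0 ± 2.3 CPM in R98W and 25.8 ± 1.5 CPM in WT (log2 fold change 0.22, edgeR adjusted p = 0.0431), and this call ended without R98W replicate 1 or 2 or any 1 of the WT libraries, at 0.16 to 0.25. Of 11 corepressors 4 were called, close to that share. CTBP2 and TLE4 rose, to 116 ± 2.0 and 23.7 ± 0.70 CPM in R98W, against 93.0 ± 3.1 and 18.9 ± 2.0 CPM in WT (edgeR adjusted p = 0.000725 and 0.00555). CIR1, which binds RBPJ in its repressing state, and L3MBTL3, a chromatin reader that RBPJ recruits, fell to 20.7 ± 2.6 and 7.55 ± 1.38 CPM in R98W, against 28.6 ± 4.0 and 10.6 ± 1.1 CPM in WT (edgeR adjusted p = 0.0015 and 0.00532). CTBP2 overlaps ZRANB1, at 19.1 CPM, on the other strand. SOX9, a progenitor factor listed among Notch targets, rose to 79.7, 89.2 and 84.1 CPM in R98W, against 72.1, 42.3 and 62.6 CPM in WT, a change of 0.52 on the log2 scale (SE 0.122, edgeR adjusted p = 0.0026), and MYC and CCND1 were not past the threshold. WT replicate 2 was the lowest library of SOX9, whose log2 fold change was 0.31 without it, still past the threshold, and the SOX9 call ended under DESeq2 (adjusted p = 0.0521).

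**Figure D5:**
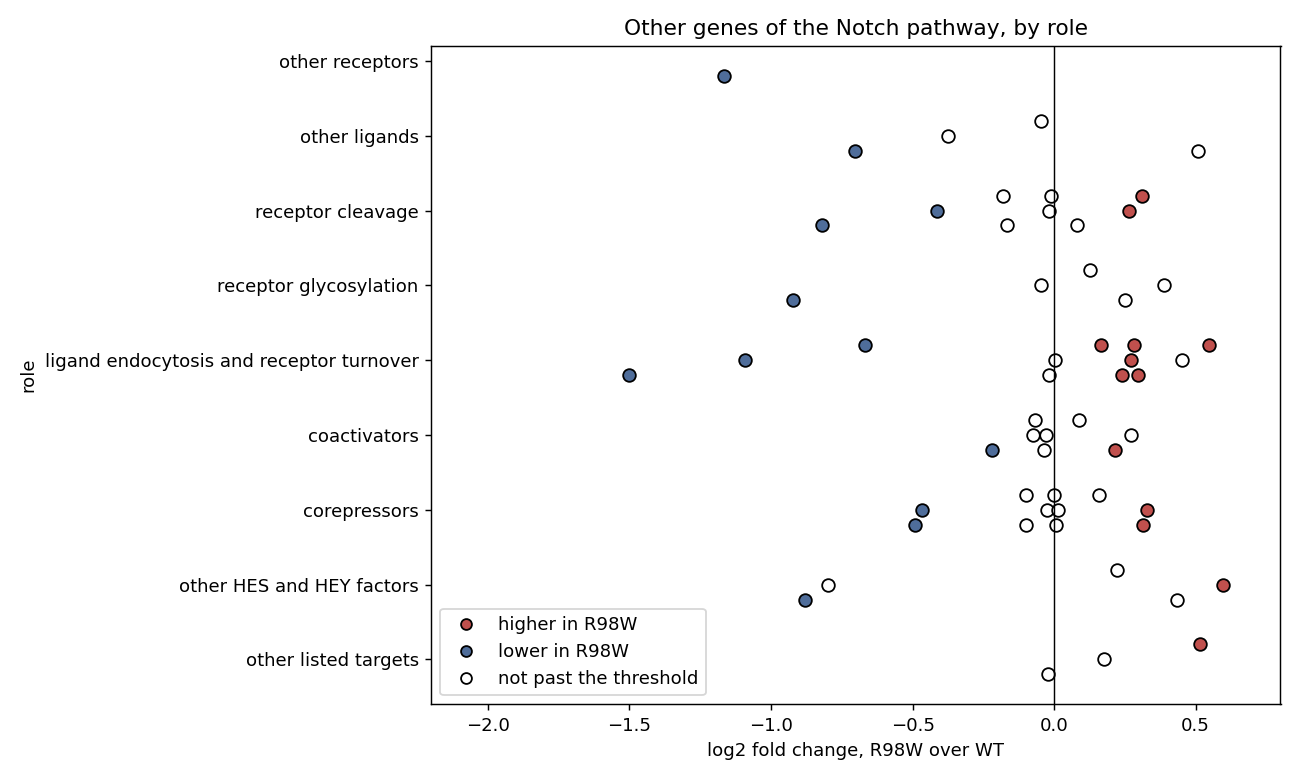
Log2 fold change of R98W over WT for the 58 tested other Notch pathway genes, grouped by role; filled points passed an edgeR adjusted p of 0.05, and vertical offsets within a role only separate points. Genes above and below 0 occur in most roles, and 13 points are filled on the side of R98W and 12 on the side of WT.

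Over the 6 libraries, the genes for proteins, averaging 1 CPM or more, whose log2 CPM followed HEY1 most closely were MARCKSL1, EIF3B, STAT3, TLCD1 and DENND3, with Pearson's r from 0.993 to 0.997. The 6 points fall into the 2 groups, and 986 of the 12158 candidate genes had r above 0.9 with HEY1, so the order among them is a description of these libraries. TLCD1, with the largest difference of these 5, had 37.4 ± 3.7 CPM in R98W and 22.2 ± 3.9 CPM in WT (SD, n = 3 each).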

How the data were processed

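Polyadenylated RNA of 6 A549 libraries was measured as raw counts per gene, deposited by the authors as whole numbers with no normalisation. Tools listed in the submitters' processing notes, with no role, are HTSeq 0.11.3, HISAT2 2.1.0 and CASAVA 1.8, and the build is hg38. The sources used here do not state the annotation, strand setting or read filters. All 58721 rows matched GENCODE release 29, used for symbols, positions, exon lengths and GC content. edgeR 4.0.16 (R 4.3.3) kept genes by filterByExpr (minimum count 10, minimum total 15), scaled libraries by TMM and tested R98W over WT in all 6 libraries by the quasi-likelihood test without covariates, with Benjamini-Hochberg adjustment over 20713 genes and a threshold of 0.05. SE came from the test statistic. Library totals of 90007121 to 110152936 counts and a biological coefficient of variation of 10.0% set the precision, and the limit for 0 reads is 3 counts per library. Named genes were the 10 members, KAT8, up to 4 called genes of each role with the smallest p and a mean of at least 1 CPM, some receptors, ligands and HES or HEY factors by level, and the 5 genes most like HEY1. Members and lists were chosen with earlier results of these data known. Alternatives were other scalings, filters and thresholds, each library left out, a replicate block, DESeq2 1.42.0, limma-voom (limma 3.58.1), and loess corrections (span 0.3) for expression level and GC content. In simulated counts for R98W over WT (20224 genes tested), calls recovered 22%, 69%, 79% and 98% of genes changed by 1.25, 1.5, 2 and 4-fold, with 15 false calls. Promoters are from RefSeq.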

Additional observations from a re-analysis of the deposited data

How the results depend on the processing

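Over 16 alternatives, 0 of the 10 Notch genes were called lower in any, and the count called higher, 4 in the reported analysis, ran from 2 to 6. It was 2 at a threshold of 0.01, and 2 to 6 when 1 library was left out. HEY1, proposed with this comparison in view, was called in each of the 15 alternatives that refitted it, which is a description only. Over all tested genes, 3364 were higher, which became 2143 at a threshold of 0.01 and 5109 after the correction for GC content, whose median log2 fold change over all tested genes was 0.08; leaving out 1 library gave 2340 to 3268. Other pathway genes called higher ran from 9 to 19 and called lower from 10 to 13. The calls of JAG1, JAG2 and HES1 each ended under at least 2 alternatives, and NOTCH3 and HES4 were called in 7 and 8 of 15; NOTCH4 kept its call in 2 of 14, KAT2B in 6 of 15, and SOX9 lost its call under DESeq2 (adjusted p = 0.0521). The causes were not tested. With the replicate number as a block, 6 Notch genes were higher, 11 other pathway genes were higher and 11 lower, and 3205 of all genes were higher and 3678 lower. The labels do not say whether same-numbered libraries shared more than a number. Their deviations from the group means had correlations of -0.0392 to 0.00564, and only WT replicate 1 correlated best with its own number. Whether they shared a batch was not tested. HEY1 in WT rests on 73 to 167 reads per library, and NOTCH4, DLL1, DLL4 and HEY2 on fewer than 110 reads per group, so small differences in them were not detectable at this depth.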

Other observations

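Other basic helix-loop-helix factors, which pair with or oppose the HES and HEY repressors, were looked up after the Notch genes had been seen. Of 20 listed, 12 were tested, and 4 rose and 1 fell by edgeR, which is 5 of 12 beside 34.8% of all tested genes. BHLHE41, a repressor related to the HES family, rose to 2.47 ± 0.45 CPM in R98W, against 1.5 ± 0.20 CPM in WT (SD, n = 3 each), a change of 0.72 on the log2 scale (SE 0.185, edgeR adjusted p = 0.00492). BHLHE40, the other listed repressor of that class, was far more abundant and level between the groups. It had 167 ± 4.8 CPM in R98W and 171 ± 7.6 CPM in WT (edgeR adjusted p = 0.724). The ID proteins, which lack a DNA-binding region and sequester partners, moved apart: ID3 fell to 143 ± 6.1 CPM in R98W, against 181 ± 5.0 CPM in WT, whereas ID2 rose to 87.3 ± 1.4 CPM in R98W, against 73.0 ± 3.9 CPM in WT, and ID4 rose to 8.07 ± 0.83 CPM in R98W, against 6.29 ± 0.49 CPM in WT. ID1 had 194 ± 9.9 CPM in R98W and 198 ± 14 CPM in WT and was not past the threshold. TCF12, an E protein, rose to 145 ± 6.2 CPM in R98W, against 129 ± 2.1 CPM in WT (edgeR adjusted p = 0.0407). The other listed E proteins, TCF3 and TCF4, were not past the threshold, with log2 fold changes of 0.03 and -0.08. The proneural genes ATOH1, NEUROG1 and NEUROG3 had 0 reads in all 6 libraries.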
